A study of Mus musculus with 2 samples.

Results

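Rab proteins are small GTPases that mark the membranes of the secretory and endocytic pathways. Each switches between a GTP-bound form, which recruits effectors that move, tether or fuse vesicles, and a GDP-bound form. Exchange factors (GEFs) turn them on, GTPase-activating proteins (GAPs) turn them off, and GDP dissociation inhibitors return them to the cytosol. In granulocytes and mast cells, Rabs of the Rab27 and Rab3 families and Rab37 act on secretory granules. The genes described here are the 57 rows, of 23235 in the deposited table, whose name is Rab followed by a number and at most 1 letter and 1 further digit. Regulators of Rab proteins are outside this set. They were split into 8 secretory granule Rabs (Rab3a, Rab3b, Rab3c, Rab3d, Rab26, Rab27a, Rab27b and Rab37) and 49 other Rabs.

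RNA was sequenced in hematopoietic progenitor cells from C57B6 mouse bone marrow. The marrow was depleted of mature lineages and transduced with 2 MIGR1 retroviruses, one for Flag-tagged Meis1 and one for HA-tagged Hoxa9, which the culture protocol gives as a fusion with ER, the tamoxifen-binding receptor part. All cells had been transformed by Hoxa9 and Meis1 in IL3 with 100 nM 4-hydroxytamoxifen (4OHT), so both groups share both viruses. The 4OHT group was washed and kept in 100 nM 4OHT for 72 h, which holds Hoxa9-ER in the nucleus. The EtOH group was washed and grown for 72 h in ethanol, the vehicle, in which nuclear Hoxa9-ER is lost.

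Each group is a single sample made of 2 biological replicates, and a gene has 1 FPKM value in each (fragments scaled to transcript length and to all mapped fragments). No spread between replicates is given with these values, so the differences below have no replicate check beyond what the authors' own test may hold. A change is log2((FPKM 4OHT + 1)/(FPKM EtOH + 1)). Values below 0 are lower in 4OHT, and the added 1 shrinks changes at low levels. A gene is called when its q-value in the authors' deposited table is at most 0.05, and "higher" or "lower" without values is used of called genes. Read totals are not part of such values, but FPKM times length in single-exon genes has a lowest step. Taken as 1 fragment, that step puts a level of 1 FPKM at about 45.8 fragments per kb of transcript for 4OHT and 43.1 for EtOH.

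The targeted gene, Hoxa9, measured 476 FPKM in 4OHT and 892 FPKM in EtOH. RNA does not show where the fusion protein is, so this level does not check the labels. Of the progenitor markers, Kit, Cd34 and Myb were present in both groups, at 7.39, 124 and 164 FPKM in 4OHT and 10.1, 45.8 and 127 FPKM in EtOH. Of the 6 progenitor markers, 3 were called higher in 4OHT (Cd34, Cd48 and Flt3) and 1 lower (Spn), while Kit and Myb were not called. Flt3 measured 14.5 FPKM in 4OHT and only 0.239 FPKM in EtOH. Cd48 measured 166 FPKM in 4OHT and 57.8 FPKM in EtOH, and Spn 103 FPKM in 4OHT and 166 FPKM in EtOH. The list thus went in both directions. Of all genes tested by the authors, 10.5% were called higher in 4OHT and 12.0% lower. Granulocyte markers were lower in 4OHT. The 10 late neutrophil markers were all called lower, with sums of 131 FPKM in 4OHT and 16268 FPKM in EtOH. All 8 basophil and mast cell markers were called lower too, with sums of 825 FPKM in 4OHT and 3718 FPKM in EtOH, as were 4 of 5 eosinophil markers, with sums of 126 FPKM in 4OHT and 4669 FPKM in EtOH. The sum of 7 macrophage markers was 203 FPKM in 4OHT and 107 FPKM in EtOH, with 3 called lower and 1 higher in 4OHT. Nearly all of it was Emr1, the F4/80 antigen, at 202 FPKM in 4OHT and 102 FPKM in EtOH, and the other 6 summed to 0.695 FPKM in 4OHT and 5.43 FPKM in EtOH. The sum of 6 megakaryocyte markers was 102 FPKM in 4OHT and 92.9 FPKM in EtOH, and that of 4 erythroid markers 4.71 FPKM in 4OHT and 2.42 FPKM in EtOH, with 1 lower and 1 higher in each list. B cell markers summed to 1.13 FPKM in 4OHT and 1.72 FPKM in EtOH and T cell markers to 0.121 FPKM in 4OHT and 0.0887 FPKM in EtOH, none called, with Pax5, Ms4a1, Cd3e, Cd3g and Cd4 at 0 in both. In such bulk RNA, fewer cells of a type and less RNA per cell cannot be told apart, and the part of these markers in the Rab values was not tested.

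Most Rab genes did not pass the authors' test, and among the secretory granule Rabs only Rab3d did. Of the 50 Rab genes that the authors tested, 6 were called, or 12%, beside 22.5% of all 11865 genes tested. Rab32, Rab19, Rab8b, Rab5b and Rab3d were lower in 4OHT, which is 10% of the Rab genes tested, beside 12.0% of all genes. Only Rab40b was higher in 4OHT, 2% of those tested, beside 10.5% of all genes. The other 44 tested Rab genes did not pass, which does not show that they were equal in the 2 groups. When at least a 1.5-fold ratio, up or down, was also required, Rab5b dropped out and 5 Rab genes were called, 10% of those tested, beside 17.1% of all genes.

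The RefSeq promoter table (GRCm38.p6) held 47 of the 57 genes. The 150 bases before the annotated start of the 6 called genes are shown because these are the Rab genes called by the authors' test. For Rab8b the bases after the start were not found near the start of a GENCODE M21 transcript of the gene, as they were for the other 5. Sequences run 5′ to 3′ along the gene's strand, and capitals mark the searched motifs found on either strand.
Rab32 (chr10:10558208-10558357, minus strand): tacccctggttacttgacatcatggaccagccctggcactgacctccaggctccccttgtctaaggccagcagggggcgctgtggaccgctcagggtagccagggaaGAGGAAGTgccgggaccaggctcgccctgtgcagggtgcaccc
Rab19 (chr6:39381203-39381352, plus strand): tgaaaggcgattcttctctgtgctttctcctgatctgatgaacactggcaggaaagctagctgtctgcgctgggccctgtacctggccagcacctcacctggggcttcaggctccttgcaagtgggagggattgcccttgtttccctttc
Rab8b (chr9:66919706-66919855, minus strand): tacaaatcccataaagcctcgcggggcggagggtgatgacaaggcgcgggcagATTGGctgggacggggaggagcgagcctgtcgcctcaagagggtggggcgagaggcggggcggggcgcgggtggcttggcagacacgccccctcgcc
Rab5b (chr10:128696269-128696418, minus strand): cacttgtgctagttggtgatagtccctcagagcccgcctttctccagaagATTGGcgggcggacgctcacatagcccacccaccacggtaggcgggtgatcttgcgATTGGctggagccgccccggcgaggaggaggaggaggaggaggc
Rab3d (chr9:21918184-21918333, minus strand): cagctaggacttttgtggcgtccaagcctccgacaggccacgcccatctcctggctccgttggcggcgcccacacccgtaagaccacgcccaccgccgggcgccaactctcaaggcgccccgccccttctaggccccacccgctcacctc
Rab40b (chr11:121388252-121388401, minus strand): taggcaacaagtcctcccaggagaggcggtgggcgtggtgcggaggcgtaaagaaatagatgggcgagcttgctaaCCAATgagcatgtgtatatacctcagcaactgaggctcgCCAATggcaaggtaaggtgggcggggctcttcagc

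No single motif of those searched was shared by all 6 promoters. Over the 250 bases before the start, CCAAT, the box bound by NF-Y, was found in Rab8b and Rab5b as its reverse complement and in Rab40b as spelled, and in 33.8% of all 32851 promoters in the table. GAGGAAGT, a form of the site of the myeloid factor PU.1, was found in Rab32 and in 2.44% of all promoters. TGATNNAT, a short form of the site of Hox proteins with a TALE partner, was found in Rab32 outside the bases shown and in 7.68% of all promoters. TGACAG, the core of the Meis site, was also found in Rab32 outside the bases shown and in 15.9% of all promoters. TTNNGNAA, a loose form of the C/EBP site, was found in Rab40b outside the bases shown and in 36.8% of all promoters. CACGTG, the E-box of Myc and Mitf factors, was in none of the 6 and in 6.02% of all promoters. Rab19 and Rab3d held none of the 6 motifs. The motifs can overlap each other, and a match here is only a run of letters.

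Among the secretory granule Rabs, Rab3d changed and the more abundant Rab27a did not pass. Rab3d, known from granules of mast cells and exocrine glands, lies on mm9 at chr9:21711955-21722565. It measured 17.3 FPKM in 4OHT and 25.9 FPKM in EtOH, a log2 change of -0.56. Its q-value in the authors' deposited table was 0.00107. Rab27a, needed for granule release in cytotoxic cells and neutrophils, lies at chr9:72892672-72945399. It measured 84.2 FPKM in 4OHT and 91.4 FPKM in EtOH (log2 change -0.12, q = 0.644 in the authors' deposited table). Rab27a was the fourth most abundant Rab gene, and its level was above that of every other granule Rab in both groups.

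The remaining granule Rabs were lower in level, and none was called. Rab37, described on mast cell granules, measured 22.5 FPKM in 4OHT and 24.9 FPKM in EtOH. Its row shares 1 locus in the table with Cd300lf, a leukocyte receptor gene at 5.77 FPKM in 4OHT and 42.3 FPKM in EtOH, so reads of the 2 genes may not have been fully separated. Rab27b, which acts beside Rab27a in mast cells and platelets, measured 5.04 FPKM in 4OHT and 5.50 FPKM in EtOH. Rab3a, the synaptic vesicle Rab, measured 2.81 FPKM in 4OHT and 2.25 FPKM in EtOH. Its locus is joined with that of the more abundant Mpv17l2, at 23.4 FPKM in 4OHT and 20.9 FPKM in EtOH. Rab26, known from granules of exocrine cells, stayed under 1 FPKM, at 0.535 FPKM in 4OHT and 0.892 FPKM in EtOH. The last members, Rab3b and Rab3c, were not tested by the authors. Rab3b was listed at 0 in 4OHT and 0.00701 FPKM in EtOH, and Rab3c at 0 in both.

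**Figure D1:**
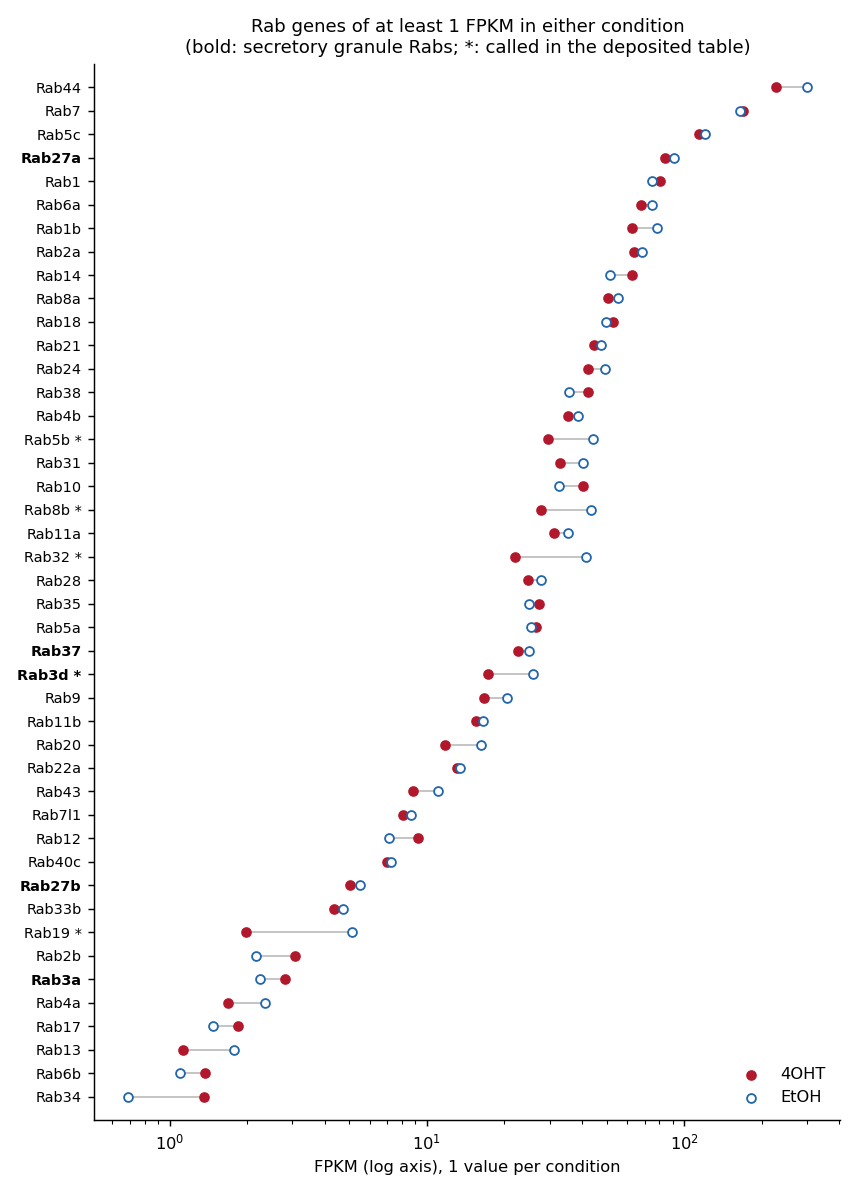
FPKM (log axis) of the 44 Rab genes that reached 1 FPKM in at least 1 group, ordered by mean level, with 4OHT as filled red points and EtOH as open blue points, 1 value each. Rab44, Rab7, Rab5c and Rab27a are at the top, and the pairs of points are widest apart for Rab19, Rab34 and Rab32, of which Rab34 (1.36 FPKM in 4OHT and 0.691 FPKM in EtOH) was not called.

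Secretory granule Rabs and the other Rabs had similar summaries. Of the 6 granule Rabs tested 1 was called (16.7%), and of the 44 other Rabs tested 5 were called (11.4%), beside 22.5% of all genes. Over genes that reached 1 FPKM in at least 1 group, the median change was -0.12 for 5 granule Rabs and -0.09 for 39 other Rabs, against 0.06 for all 11022 genes. Summed FPKM was 132 in 4OHT and 151 in EtOH for the granule Rabs, and 1485 in 4OHT and 1644 in EtOH for the other Rabs. The granule Rabs thus held 8.18% of all Rab FPKM in 4OHT and 8.41% in EtOH. That share depends on the split, which counts Rab44 (14.0% in 4OHT and 16.6% in EtOH) with the other Rabs. The difference between these 2 sets of genes cannot be tested over samples. When the EtOH values were scaled to give both groups equal FPKM sums, the median of all genes moved by 0.10, to 0.16. The same scaling put the Rab median at 0.0028, where it was -0.11 as deposited. Relative to the median of all genes, the Rab median was -0.16 both as deposited and with that scaling. A single factor shifts all genes almost alike, so this difference could hardly change. Another scaling, to a median ratio of 1 over genes of at least 5 FPKM, put the Rab median at -0.17.

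**Figure D2:**
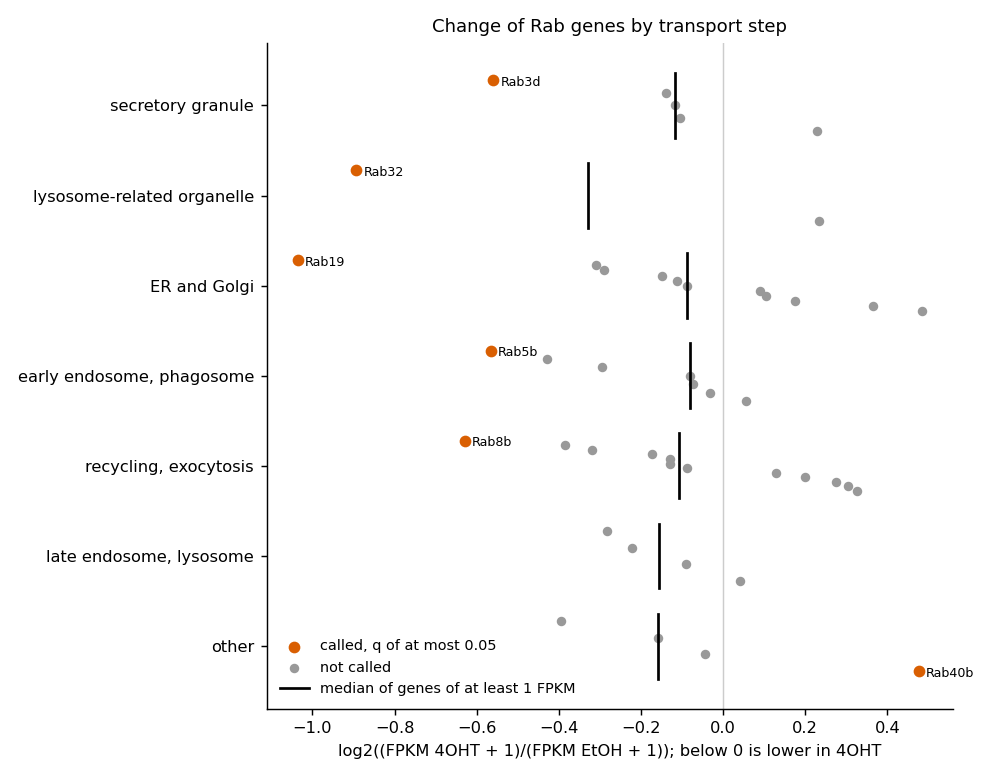
Log2 change, 4OHT over EtOH, of each Rab gene by the transport step it is known for (horizontal axis; negative is lower in 4OHT); each point is a gene that reached 1 FPKM in at least 1 group, or Rab40b, and the black bars are medians without Rab40b. The called genes (orange) are spread over 6 of the 7 steps, and the late endosome and lysosome step has none.

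Rab32 had the smallest q-value of the called Rab genes. Rab32 and Rab38 are close relatives that deliver cargo to lysosome-related organelles such as melanosomes and platelet dense granules. Rab32 (mm9 chr10:10264837-10278005) measured 21.9 FPKM in 4OHT and 41.6 FPKM in EtOH, a log2 change of -0.89, with q = 1.82e-07 in the authors' deposited table. Rab38 measured 42.2 FPKM in 4OHT and 35.7 FPKM in EtOH, and did not pass (log2 change 0.23, q = 0.332 in the authors' deposited table). Rab32 therefore made up 34.2% of the summed FPKM of the pair in 4OHT and 53.8% in EtOH, so the order of the pair was reversed between the groups. That change of order was not tested. When Rab32, Rab38 and Rab44 were counted with the granule Rabs, 2 of 9 tested were called (22.2%), beside 22.5% of all genes. Of the 41 remaining Rabs tested, 4 were called (9.76%). This wider list summed to 423 FPKM in 4OHT and 526 FPKM in EtOH. The remaining Rabs summed to 1194 FPKM in 4OHT and 1268 FPKM in EtOH. The difference between the 2 sets was not tested.

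The other genes that were lower in 4OHT belong to endocytosis, recycling and the Golgi. Rab8b, which acts in transport to the cell surface, lies on mm9 at chr9:66691471-66767512. It measured 27.7 FPKM in 4OHT and 43.5 FPKM in EtOH (log2 change -0.63, q = 9.97e-05 in the authors' deposited table). Rab5b, one of the Rab5 proteins of the early endosome, lies at chr10:128114239-128133324. Its level was 29.4 FPKM in 4OHT and 44.0 FPKM in EtOH (log2 change -0.57, q = 0.00081 in the authors' deposited table). Transcripts of other genes hold 9.80% of its 50-base words. Rab19, placed at the Golgi and little studied, lies at chr6:39331427-39340378. It had the largest change of the 44 Rab genes that reached 1 FPKM in at least 1 group, at 1.99 FPKM in 4OHT and 5.13 FPKM in EtOH (log2 change -1.04, q = 9.46e-05 in the authors' deposited table). With Rab32 and Rab3d, all 5 genes called lower kept this direction under both other scalings tried, which were too small to reverse it.

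Rab40b was the one called gene that was higher in 4OHT, and it was scarce. It encodes a Rab with a SOCS box, which binds a ubiquitin ligase, and lies on mm9 at chr11:121217435-121249565. It measured 0.478 FPKM in 4OHT and 0.0625 FPKM in EtOH (log2 change 0.48, q = 0.0143 in the authors' deposited table). Its relative Rab40c measured 6.99 FPKM in 4OHT and 7.24 FPKM in EtOH, and did not pass.

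In the Rab5 and Rab8 families the called gene was not the most abundant relative. Rab5c, the most abundant of the Rab5 genes, measured 114 FPKM in 4OHT and 120 FPKM in EtOH, and Rab5a 26.4 FPKM in 4OHT and 25.4 FPKM in EtOH. Rab5b made up 17.3% of the Rab5 sum in 4OHT and 23.3% in EtOH. Rab8a measured 50.5 FPKM in 4OHT and 55.3 FPKM in EtOH, and Rab8b made up 35.5% of the Rab8 sum in 4OHT and 44.0% in EtOH. Among the Rab3 genes the most abundant was the one called, and Rab3d held 86.0% of their sum in 4OHT and 92.0% in EtOH. Rab27a held 94.3% of the Rab27 sum in both groups. In the Rab1 pair, of transport between the endoplasmic reticulum and the Golgi, Rab1b had 43.7% in 4OHT and 51.0% in EtOH, with neither gene called. These shares compare levels per transcript length and have no replicate error.

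**Figure D3:**
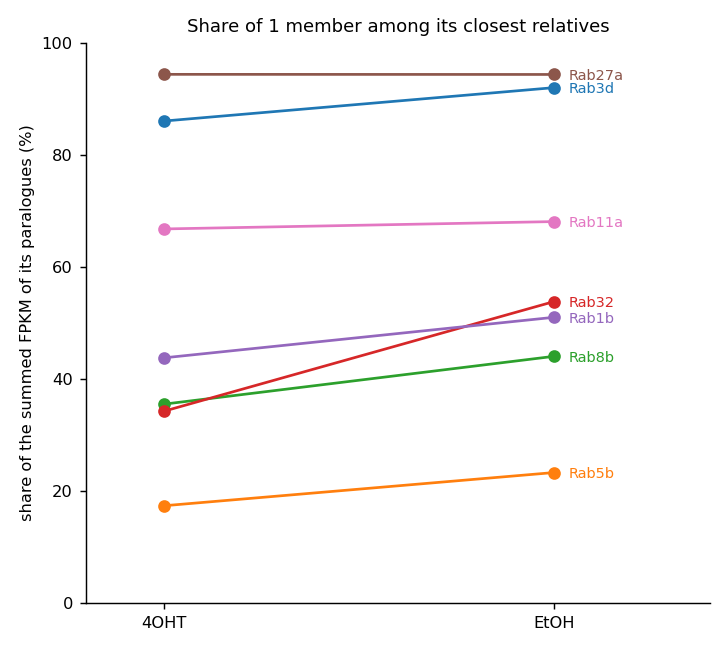
Share (%) of the summed FPKM of its close relatives held by 1 member, in 4OHT (left) and EtOH (right), 1 value each; the families are Rab3, Rab5, Rab8, Rab1, Rab27, Rab11 and the pair of Rab32 and Rab38. Rab32 has the steepest line (34.2% in 4OHT and 53.8% in EtOH), and that of Rab27a is flat at 94.3%.

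The most abundant Rab gene in both groups was Rab44, a large atypical Rab with EF-hand motifs that has been described in mouse osteoclasts and mast cells. Rab44 (mm9 chr17:29272001-29285921) measured 227 FPKM in 4OHT and 298 FPKM in EtOH, and it ranked 336th in 4OHT and 278th in EtOH among all 23235 rows. Its log2 change of -0.39 did not pass, with q = 0.0872 in the authors' deposited table. With a limit of 0.1 on q it would be called, which makes 7 Rab genes called, beside 27.4% of all genes. It held 14.0% of all Rab FPKM in 4OHT and 16.6% in EtOH. Next was Rab7, which directs late endosomes to lysosomes, at 168 FPKM in 4OHT and 164 FPKM in EtOH, with 11.2% of its words shared with other genes. Whether neighbours in this order differ cannot be told without replicate values.

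Few Rab genes of general membrane traffic were called. Of the 13 tested genes of the endoplasmic reticulum and Golgi step 1 was called, and of the 13 tested genes of recycling and exocytosis 1 was called, in each case 7.69%, beside 22.5% of all genes. The early endosome and phagosome step had 1 of 7 called (14.3%) and the late endosome and lysosome step 0 of 4 (0%), beside the same 22.5%. Counts over so few genes do not set these steps apart from all genes. Those 4 late endosome genes had log2 changes between -0.28 and 0.04. Rab1, Rab2a and Rab6a, the main ER and Golgi members beside Rab1b, measured 80.6, 63.5 and 67.6 FPKM in 4OHT and 74.9, 68.6 and 75.1 FPKM in EtOH. Rab14 and Rab10, which return membrane to the cell surface, measured 62.6 and 40.3 FPKM in 4OHT and 51.5 and 32.5 FPKM in EtOH, and neither passed. Rab6a lies on a joint locus with Mrpl48 (36.6 FPKM in 4OHT and 31.8 FPKM in EtOH). Rab10 lies on one with 1700012B15Rik (8.31 FPKM in 4OHT and 8.56 FPKM in EtOH). Reads there may not have been fully separated.

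The sizes of change were also read without regard to the test. Of the 44 Rab genes of at least 1 FPKM, 3 differed at least 1.5-fold on the scale with the added 1, or 6.82%, beside 16.3% of all 11022 such genes. By FPKM with nothing added, 6 did (Rab19, Rab34, Rab32, Rab13, Rab8b and Rab3d), or 13.6%, beside 20.9% of all such genes. The median size of change, in either direction, was 0.19 for the Rab genes and 0.22 for all genes. At the 90th percentile the size was 0.54 for the Rab genes and 0.82 for all genes. The 2 sets were not matched for level. The median level of the Rab genes was 25.6 FPKM in 4OHT and 26.8 FPKM in EtOH. That of all genes was 12.6 FPKM in 4OHT and 12.4 FPKM in EtOH. Of the 44, 30 had a log2 change below 0 (68.2%), beside 42.9% of all 11022 genes, whose median was above 0. Both shares depend on the scaling. When the FPKM sums were made equal, the Rab median was 0.0028 and that of all genes 0.16. The Rab median minus that of all genes stayed at -0.16, which a single factor could hardly change. Summed over all 57, Rab FPKM was 1617 in 4OHT and 1795 in EtOH, which is 0.297% of the FPKM of the whole table in 4OHT and 0.303% in EtOH.

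**Figure D4:**
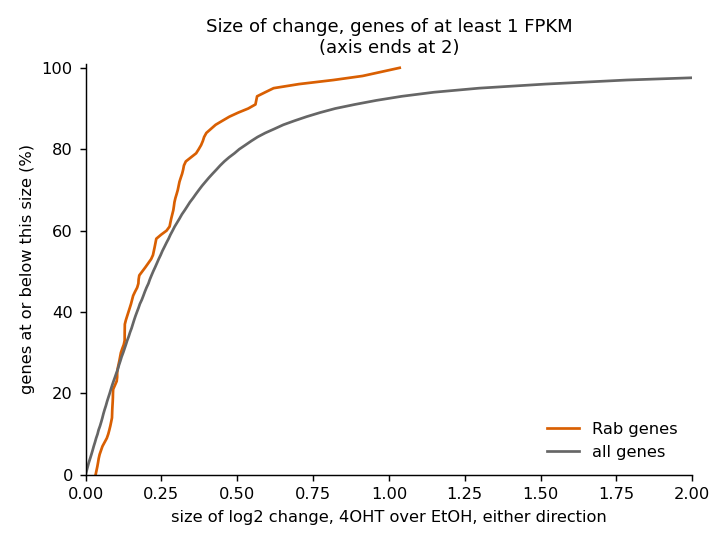
Cumulative share (%) of genes by the size of their log2 change, 4OHT over EtOH, for the Rab genes (orange) and all genes (grey) that reached 1 FPKM in at least 1 group. The Rab curve ends at 1.04 (Rab19) while that of all genes runs past the end of the axis, and the curves cross below 0.25.

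In both groups 13 Rab genes were under 1 FPKM. Of these 13, the authors tested 6: Rab23, Rab25, Rab26, Rab33a, Rab39 and Rab40b. The other 7 were left untested, and they were Rab3b, Rab3c, Rab9b, Rab15, Rab30, Rab36 and Rab39b. Rab15 was listed at 0 in 4OHT and Rab9b and Rab30 at 0 in EtOH, each beside a value under 0.03 FPKM in the other group. Rab3c was the only one listed at 0 in both. Rab33a, a Golgi Rab, measured 0.359 FPKM in 4OHT and 0.949 FPKM in EtOH, and did not pass (q = 0.104 in the authors' deposited table).

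Genes that regulate or bind Rab proteins were mostly lower in 4OHT where called. Of 102 such genes 85 were tested, and 24 were called, or 28.2%, beside 22.5% of all genes. Of those tested, 20 were lower in 4OHT (23.5%, beside 12.0% of all genes) and 4 were higher (4.71%, beside 10.5%). With a ratio of at least 1.5 also required, 14 were called (16.5%), beside 17.1% of all genes. The difference between these genes and the Rab genes was not tested. None of 7 genes listed under prenylation and GDP dissociation, steps that serve Rab proteins in general, passed. The list also holds Rabif, which belongs to neither step. Among them Gdi2, the most abundant dissociation inhibitor here, was at 197 FPKM in 4OHT and 209 FPKM in EtOH.

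Of 24 exchange factors tested, 7 were lower in 4OHT (29.2%), beside 12.0% of all genes. This list counts Rab3gap1 and Rab3gap2, which are named for GTPase activation of Rab3, and neither was called. Dennd2a, a DENN domain protein described in human cells as an exchange factor of Rab9, measured 0.0301 FPKM in 4OHT and 2.15 FPKM in EtOH (log2 change -1.61, q = 2.9e-13 in the authors' deposited table). Rin3, an exchange factor of the Rab5 group, measured 39.3 FPKM in 4OHT and 65.0 FPKM in EtOH (log2 change -0.71). Dennd2d, of the same domain family as Dennd2a, measured 17.0 FPKM in 4OHT and 26.6 FPKM in EtOH (log2 change -0.62).

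GTPase activators changed in both directions. Of 31 tested, 7 were lower in 4OHT (22.6%), beside 12.0% of all genes, and 3 were higher (9.68%), beside 10.5% of all genes. Tbc1d8, a TBC domain protein, measured 6.74 FPKM in 4OHT and 23.8 FPKM in EtOH (log2 change -1.68), the largest change among the regulators on the scale with the added 1. With nothing added, the FPKM ratio of Dennd2a was larger. Tbc1d22b, of the same domain family, was higher in 4OHT, at 49.9 FPKM against 23.6 FPKM in EtOH (log2 change 1.05). Tbc1d24 measured 2.14 FPKM in 4OHT and 4.62 FPKM in EtOH (log2 change -0.84).

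Few effectors of granule Rabs were present. Of 13 listed, 4 were tested and 1 was called (25%, beside 22.5% of all genes). Sytl1, a synaptotagmin-like protein that binds Rab27a, measured 22.0 FPKM in 4OHT and 31.9 FPKM in EtOH (log2 change -0.52, q = 0.0069 in the authors' deposited table). Unc13d, the Munc13-4 protein that works with Rab27a in granule fusion, measured 38.0 FPKM in 4OHT and 41.0 FPKM in EtOH and did not pass. Sytl3, a relative of Sytl1, did not pass either, at 2.82 FPKM in 4OHT and 4.08 FPKM in EtOH. Mlph and Myrip, linkers of Rab27a to myosin, measured 0.0219 and 0.0195 FPKM in 4OHT and 0.0281 and 0.0300 FPKM in EtOH. Of 19 other effectors tested, 5 were lower in 4OHT (26.3%, beside 12.0% of all genes) and 1 was higher (5.26%, beside 10.5%). Appl2, an endosomal adaptor that binds Rab5, was higher, at 32.7 FPKM in 4OHT and 21.5 FPKM in EtOH. Rab11fip1, which binds Rab11, measured 2.80 FPKM in 4OHT and 4.40 FPKM in EtOH, and Mical1, an actin-oxidising enzyme that binds Rabs, 21.9 FPKM in 4OHT and 31.6 FPKM in EtOH.

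**Figure D5:**
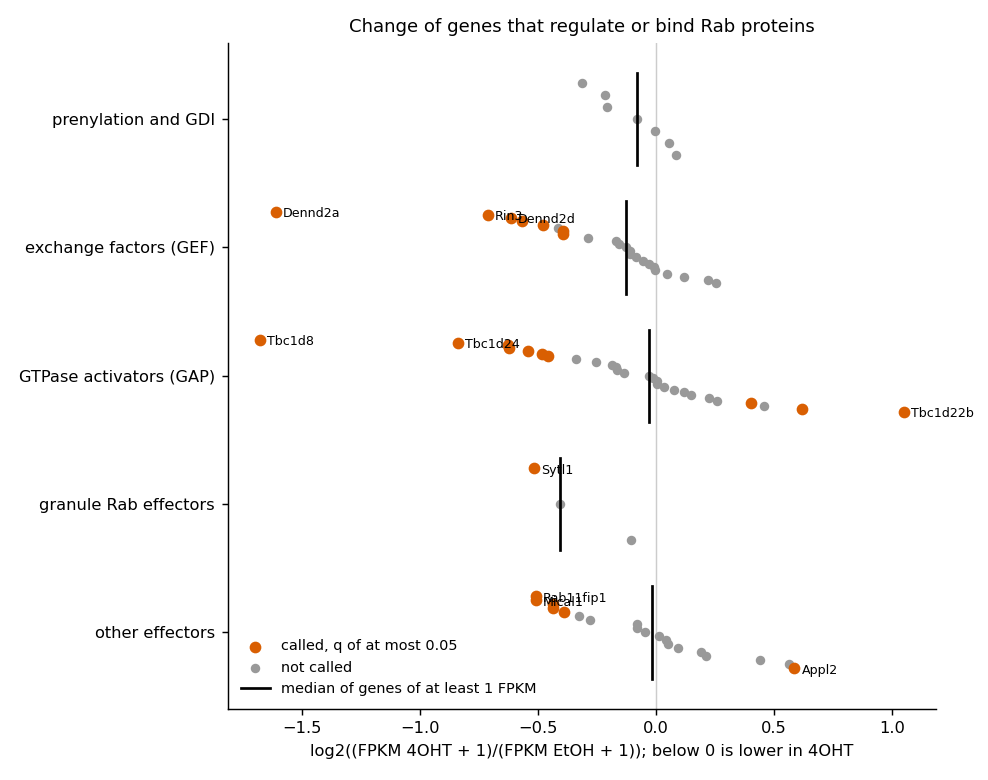
Log2 change, 4OHT over EtOH, of genes that regulate or bind Rab proteins, by list (horizontal axis; negative is lower in 4OHT); points are genes that were called or reached 1 FPKM in at least 1 group, orange where called, and bars are medians of genes that reached 1 FPKM. Genes of the prenylation and GDI list stay between -0.31 (Rabif) and 0.08, while Dennd2a, Tbc1d8 and Tbc1d22b lie beyond 1 in size.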

How the data were processed

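The deposited table has 1 row per gene name. Per the file headers, its columns are the authors' FPKM of each condition, the p-value and q-value of their test, and their ratio, in which EtOH is divided by 4OHT. The submitters' processing notes name the mm9 build and the tools Cuffdiff 2.0.2, Bowtie2 2.0.0.7 and CASAVA 1.8.2. Strand setting, annotation and library scaling were not given in the sources used here. A test was run by the authors on 11865 rows. FPKM gives no read totals, so the depth is only estimated, from the lowest step of FPKM times length in 18 single-exon genes in 4OHT and 14 in EtOH. In 18 rows the ratio was over 1% away from that of the FPKM values, and it served only for an alternative call.

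Python 3.11.15 and pandas 2.3.3 were used. No test over samples was possible, and the p-values rest on replicates whose source animals are not given. Medians used genes that reached 1 FPKM in at least 1 group, and a pseudocount of 1. The Rab genes, the split by transport step, and the lists of 102 regulators and 57 markers (56 found) were chosen with earlier results of these data known. A further regulator is not reported here and was left out of the list and its counts. Named genes were the granule Rabs, called Rabs, the 4 most abundant, those at 0 in both groups, up to 3 called regulators per list with the largest change, and Hoxa9. Any other gene was picked with its values in view, and the promoter motifs with the sequences in view. Shared sequence is the percentage of 50-base words that GENCODE M21 also places in another gene's transcripts. The promoters are on another build than the table, and their coordinates were not combined with those of the table.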

Additional observations from a re-analysis of the deposited data

How the results depend on the processing

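No paired analysis was possible because each condition had 1 value per gene, and leaving out a replicate was not possible for the same reason. Counts and medians were recomputed 62 times, and in 56 of these they kept their direction and stayed within 1.5 times the count or 0.1 of the median. That limit of 0.1 is loose, since it is close to the size of the medians. It exceeds the difference of medians between granule and other Rabs, -0.026 as deposited and between -0.039 and -0.0059 otherwise. Some settings could not alter the counts. When the EtOH values were scaled to equal FPKM sums, the median log2 change turned to 0.0028 for all Rab genes, 0.0088 for the other Rabs and 0.014 for the regulators, and moved to -0.0048 for the granule Rabs. The pseudocounts of 0.1 and 5 cannot alter the direction of a gene. Both scalings, which multiplied EtOH by 0.921 and 1.05, were too small to reverse changes of the size seen in the 6 called Rab genes. The wider granule list gave 2 called genes in place of 1. Requiring a ratio of at least 1.5 left 14 called regulators of 24. None of the 6 called Rab genes was among the 9 on a joint locus (Rab2b, Rab3a, Rab3b, Rab4b, Rab5a, Rab6a, Rab10, Rab37 and Rab40c). Nor was any among the 3 that share over 10% of their words (Rab43, Rab4b and Rab7), a check chosen after seeing the data. Leaving these genes out therefore could not change the 6 calls. Without Rab40b, which was under 1 FPKM in both groups, 5 were called, none of them higher in 4OHT. FPKM without replicate values limits what low genes such as Rab40b can show.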

Other observations

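The other small GTPases of vesicle traffic, the Arf, Arl and Sar1 genes, were looked at after their values were seen. Of 28 rows 23 were tested and 5 were called (21.7%, beside 22.5% of all genes), with 3 lower and 2 higher in 4OHT. Arl4c, an Arf-like GTPase of the plasma membrane, measured 4.46 FPKM in 4OHT and 22.7 FPKM in EtOH (log2 change -2.12), which is larger than the change of any of the 44 Rab genes that reached 1 FPKM in at least 1 group. Arl11 measured 65.5 FPKM in 4OHT and 98.6 FPKM in EtOH, and Arl15 2.04 FPKM in 4OHT and 3.32 FPKM in EtOH. The Golgi GTPases Arl1 and Arf4 were higher in 4OHT, Arl1 at 121 FPKM against 77.5 FPKM in EtOH, and Arf4 at 102 FPKM against 74.9 FPKM in EtOH. The 3 Rab-like genes Rabl2, Rabl3 and Rabl5 did not pass, with log2 changes between 0.10 and 0.24. The difference between these families was not tested.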
